A study of Homo sapiens with 12 samples.

Results

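The response of venetoclax-resistant lymphoma cells to decitabine was described from 6 of the 12 RNA libraries of the study: 3 of OCI-LY1R cells given vehicle and 3 of OCI-LY1R cells given decitabine. They were chosen as the table of the resistant line and are compared by gene name, decitabine against vehicle. OCI-LY1 is a human line of diffuse large B-cell lymphoma of germinal-centre type, and OCI-LY1R is its derivative with acquired resistance, selected with rising venetoclax up to 1 µM. Both groups carried this selection, and neither the labels nor the design text say whether venetoclax was still present during the treatment. Vehicle was DMSO, and decitabine was given at 1 µM for 3 days. OCI-LY1R is 1 derivative of 1 line, and the labels do not state whether libraries came from separate cultures, so a p-value measures the spread between these libraries, which may be technical. The 6 parental libraries, given the same treatments without venetoclax selection, are used only where values or responses of both lines are set side by side. Within vehicle and decitabine the 3 resistant libraries carry the letters a to c in the order of their columns; same-lettered libraries did not deviate together, and the groups were compared without a block.

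Venetoclax binds BCL2, a protein that holds back the BH3-only initiators of apoptosis such as BIM and BMF, and cells can tolerate it by leaning on related proteins such as BCL-XL (BCL2L1) and MCL1. Decitabine is a deoxycytidine analogue. It is phosphorylated by deoxycytidine kinase (DCK), enters DNA and traps the DNA methyltransferases, so that methylation is lost as cells divide and genes silenced by promoter methylation, many of them germline genes, can be transcribed again. It also causes DNA damage, to which p53 targets such as MDM2 and FAS respond in cells with an active p53 pathway.

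Values are TPM, transcript abundances per transcript length that sum to 1000000 in each library, so the depth behind a value is unknown and no counting interval is given. In these 6 libraries much of the signal lay in features annotated on the strand opposite a coding gene. Features of the antisense class took 43.09%, 49.13% and 43.73% of TPM under vehicle and 35.44%, 40.04% and 35.24% under decitabine. The feature opposite GAPDH was listed at 134300, 147000, 108500 TPM under vehicle against 9787, 10910, 11060 TPM for GAPDH itself. Of 433 genes tested both ways, the opposite feature had the higher mean in 368, with a median log2 ratio of opposite to own TPM of 3.04. A feature with at least 50% of its exon length over exons of a coding gene on the other strand was therefore read as a possible proxy of that gene. Whether its value is that of an antisense RNA or of the gene's own transcript cannot be told apart from TPM. An exact 0 can be a failed estimate. Of 8579 tested features, 364 were listed at 0 in at least 1 vehicle library and at 20 TPM or more in another, and 305 were so in the decitabine group.

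Of 10 B-cell markers read by their own names 8 were tested and none was called. At an unadjusted p under 0.05 (limma) were 2 of these 8, and 1695 of all 8579 tested features. The summed level of the markers was 121 to 209 TPM under vehicle and 195 to 269 TPM under decitabine. The defining marker MS4A1 (CD20) was at 0 in 4 of the 6 libraries and at 0.430 and 3.15 TPM in the other 2. Replicate 3 of the parental decitabine group, in which the other strand carries the signal, listed MS4A1 at 204 TPM. Markers of T and natural killer cells summed to at most 2.17 TPM in any library, of myeloid cells to at most 1.39 and of fibroblasts and endothelium to at most 0.304 TPM, and all 7 erythroid markers were at 0. Epithelial markers summed to 0, 2.98 and 0 TPM under vehicle and to 23.4, 15.2 and 1.77 TPM under decitabine, nearly all of it from KRT8, whose groups overlapped and which was not called (adjusted p = 0.193). The part of these markers in the results was not tested. In bulk RNA, fewer cells of a type and less RNA per cell cannot be told apart.

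With decitabine, 243 of 8579 features rose and 65 fell (limma on log2(TPM + 1), Benjamini-Hochberg adjusted p under 0.05). These are 2.83% and 0.758% of the features tested, 3.59% in all. Of the 243 rises 100 were listed at 0 in all vehicle libraries, and of the 65 falls 10 were listed at 0 in all decitabine libraries. Features of at least 1 TPM numbered 7348, 7227 and 7078 under vehicle and 8731, 8744 and 9038 under decitabine, and mitochondrial tRNA features took 16.4%, 10.4% and 15.2% of TPM under vehicle and 23.9%, 17.7% and 23.02% under decitabine. Features opposite a coding gene took 37.69%, 43.03% and 38.08% of TPM under vehicle and 30.67%, 34.59% and 30.09% under decitabine. The groups did not overlap in any of these measures or in the antisense share given above. Each had a two-sided exact permutation p of 0.1, the smallest that 3 against 3 can give. Their part in the calls, falls of opposite features included, was not tested. Over all features the median log2 fold change stood at 0.21 as deposited, at 0.10 after median-ratio and at -0.06 after quantile scaling, and the calls were 220 rises and 124 falls after median-ratio and 131 rises and 65 falls after quantile scaling. Leaving out each library in turn gave 71 to 151 rises and 18 to 46 falls, and 54 features (47 rises and 7 falls) were called in all 6 of those fits. Where a call is given below as lost in some fits, the parentheses hold the range of adjusted p over the alternatives run for that feature, other than the fit with a block on the column number.

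**Figure D1:**
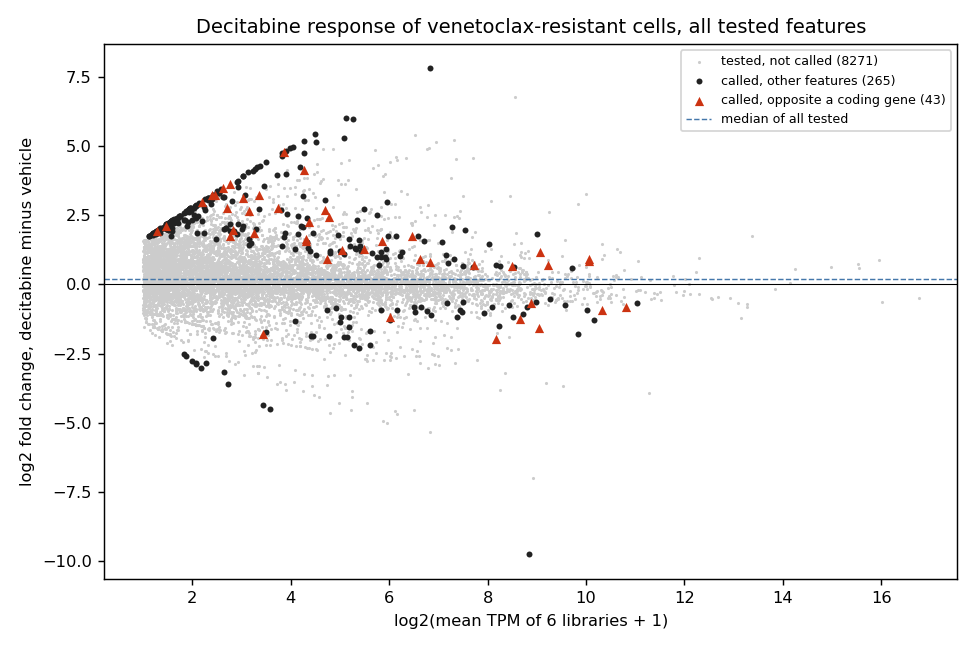
Log2 fold change with decitabine (vertical) against log2(mean TPM of 6 libraries + 1) for the 8579 tested features of resistant cells. Black points and red triangles are the 308 calls, 43 of them opposite a coding gene, and many rises at low TPM lie on the straight edge formed by features listed at 0 in the vehicle libraries.

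Among features lying opposite a coding gene 35 of 695 rose and 8 fell, which are 5.04% and 1.15% of them. Of the 246 with a mean of at least 100 TPM, 7 rose and 6 fell. Rises with a mean above 100 TPM included those opposite BMF, MDM2, SMAD1 and CLCN7.

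BMF-AS1 (chr15:40088832-40089386, GRCh38, plus strand) lies over its whole exon length opposite BMF, a BH3-only protein that binds BCL2 and its relatives. It was listed at 335, 331, 316 TPM under vehicle and at 794, 740.3, 679.7 TPM under decitabine. Every decitabine library was above every vehicle library by more than the spread within either group (log2 change 1.17, SE 0.10, adjusted p = 0.0084), and the call held without any 1 library. BMF by its own name was at 0 in all 6. In parental cells BMF-AS1 was at 619, 678, 753 TPM under vehicle, and decitabine replicates 1 and 2 had 617 and 746 TPM. The lines were deposited in separate tables, each library scaled to 1000000 TPM, so levels set across them are a description. Parental decitabine values and log2 changes given from here on are of those replicates unless stated otherwise. The response was thus larger in resistant than in parental cells (difference of log2 responses 1.17, SE 0.16, adjusted p = 0.0346, without parental decitabine replicate 3), and resistant vehicle cells started from a lower level. Replicate 3 of the parental decitabine group stands apart from the other 11 libraries in which strand carries the signal and listed BMF-AS1 at 0. With all 12 libraries the difference was not called (4.31, adjusted p = 0.709).

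The feature opposite MDM2 (chr12:68841288-68843237, minus strand) rose from 699.9, 677, 853 TPM to 1317, 1450, 1430 TPM (log2 change 0.92, SE 0.12, adjusted p = 0.0246). MDM2 is the ubiquitin ligase that degrades p53 and is itself a p53 target. MDM2 by its own name was at 12.4, 12.1, 15.02 TPM under vehicle and 21.95, 24.95, 21.96 TPM under decitabine, also without overlap, as were 19.8% of all features on the higher side, but missed the threshold (log2 change 0.76, SE 0.19, adjusted p = 0.0938). The feature overlaps the end of CPM, the gene of carboxypeptidase M, on the same strand, and CPM rose from 151, 159, 178 to 244, 254, 266 TPM (log2 change 0.65, SE 0.12, adjusted p = 0.046). Which of the genes the opposite feature follows cannot be told apart. Parental cells had 260.4, 237, 319 TPM under vehicle and 608 and 691 TPM in decitabine replicates 1 and 2, a log2 change of 1.26 (adjusted p of the difference 0.59). The call of the feature opposite MDM2 was lost without any 1 library other than vehicle c and without the trend term (adjusted p 0.0204 to 0.0811), and that of CPM without any 1 of the 6 libraries and under quantile scaling, under median-ratio scaling or without the trend term (adjusted p 0.0373 to 0.151).

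SMAD1-AS1 (chr4:145514615-145517118, minus strand) lies over 78.2% of its exon length opposite SMAD1, a transcription factor of bone morphogenetic protein signalling whose silencing by methylation has been described in diffuse large B-cell lymphoma. It rose from 675, 833, 782 TPM to 1456, 1345, 1268 TPM (log2 change 0.83, SE 0.12, adjusted p = 0.028). SMAD1 itself was at 89.8, 162, 129 TPM and 369, 229, 221 TPM (log2 change 1.10, SE 0.30, adjusted p = 0.117). Its groups stayed apart without a call, and 19.8% of all features lay higher without overlap. The feature opposite CLCN7, a lysosomal chloride-proton exchanger, went from 436, 484, 449.8 TPM to 749, 760.1, 703 TPM (log2 change 0.69, SE 0.10, adjusted p = 0.0271). Opposite RECQL4, a DNA helicase, the values were 251, 286, 289 and 419, 413, 490.1 TPM (log2 change 0.68, SE 0.12, adjusted p = 0.0486), and opposite TRIM38, a ubiquitin ligase of innate immune signalling, 151, 165, 163 and 244, 275, 257 TPM (log2 change 0.69, SE 0.11, adjusted p = 0.0335). These rises are modest and tight. That groups do not overlap was a condition of naming these features and adds nothing to the calls. All 4 calls depended on the number of libraries: they were lost without any 1 library other than vehicle b and without the trend term (adjusted p 0.0114 to 0.1) for SMAD1-AS1, without any 1 library other than vehicle b and without the trend term (adjusted p 0.0169 to 0.122) for the feature opposite CLCN7, without any 1 of the 6 libraries and under median-ratio scaling or without the trend term (adjusted p 0.0408 to 0.153) for that opposite RECQL4 and without any 1 of the 6 libraries and without the trend term (adjusted p 0.0235 to 0.124) for that opposite TRIM38.

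The feature opposite GSTM1 rose further, from 41.5, 39.1, 36.9 TPM to 157, 138, 109.6 TPM (log2 change 1.74, SE 0.17, adjusted p = 0.0107), and was called without any 1 library. GSTM1 encodes a glutathione S-transferase with near-identical neighbours, so the assignment among them is uncertain. PRAL (chr17:6772831-6776116, minus strand) has 77.1% of its exon length opposite XAF1, an interferon-stimulated gene that counters the caspase inhibitor XIAP. It rose from 7.96, 7.23, 7.14 TPM to 34.3, 45.2, 56.4 TPM (log2 change 2.43, SE 0.23, adjusted p = 0.0106) and kept its call without any 1 library, while XAF1 by its own name was at 0 in all 6. In parental cells the change of PRAL was larger in the point estimate (3.69), and the difference between the lines was not called (adjusted p = 0.135).

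**Figure D2:**
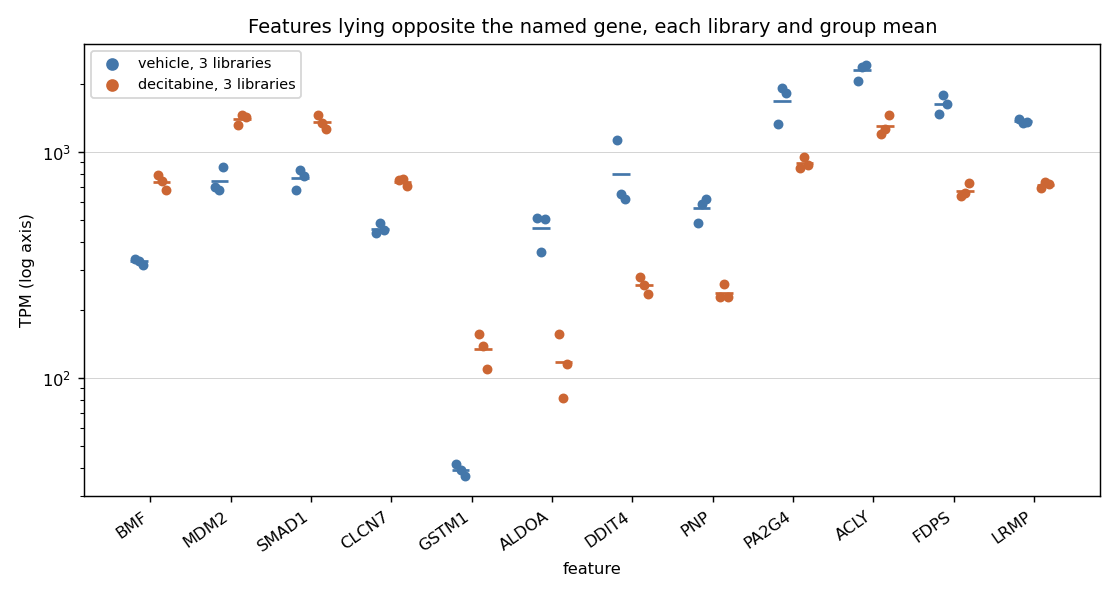
TPM (log axis) of 12 features that lie opposite the gene named on the horizontal axis, for each of the 3 vehicle (blue) and 3 decitabine (orange) libraries of resistant cells, with the group mean as a bar. The first 5 lie higher and the last 7 lower with decitabine. That groups do not overlap follows from how these features were chosen. The features at FDPS and LRMP lie opposite those genes over 19.7% and 27.6% of their exon length only.

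A further set was listed at or near 0 under vehicle. The feature opposite EMP2 (chr16:10529440-10532082, plus strand) was listed at 0 in all vehicle libraries and at 29.8, 31.96, 19.4 TPM under decitabine (adjusted p = 0.0026). EMP2 is a four-span membrane protein mainly known from epithelia. The feature opposite SALL2, a zinc-finger transcription factor of development, went from 0 in all vehicle libraries to 8.42, 15.1, 11.4 TPM (adjusted p = 0.00852). Opposite YAP1, the co-activator of the Hippo pathway that is usually low in blood cancers, it was 0 and then 10.8, 6.63, 8.07 TPM (adjusted p = 0.0107). The features opposite MYOZ3, a protein of the muscle Z-disc, and PRR36 behaved alike, at 0 under vehicle and at 9.34, 6.16, 5.89 TPM and 12.9, 10.04, 7.98 TPM under decitabine (adjusted p = 0.0139 and 0.00852). Opposite MTSS1L, an actin-binding protein of the cell membrane, 1.07, 0.906, 1.32 TPM became 39.2, 35.3, 32.7 TPM (log2 change 4.13, SE 0.22, adjusted p = 0.00172). All 6 were called without any 1 library. By their own names EMP2 and SALL2 were at 0 in all 6 libraries and YAP1 did not exceed 1.28 TPM. In all, 13 of 695 opposite features (1.87%) were at 0 in the 3 vehicle and above 0 in the 3 decitabine libraries, a share near that of all tested features (166 of 8579, 1.93%). In parental cells the features opposite EMP2 and SALL2 were at 7.09 and 7.23 TPM and 12.9 and 10.4 TPM in decitabine replicates 1 and 2, with adjusted p of the difference between lines of 0.131 and 0.841.

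Since decitabine acts on methylated CG dinucleotides, the 250 bases before the first listed start of 6 genes are given, 4 with a rise (BMF and EMP2 by their opposite features, SYCP3 and FAS by their own names) and 2 with a fall (ALDOA by its opposite feature and PDK1 by its own name). Sequences are from RefSeq (GRCh38.p14), 5′ to 3′ on the gene's strand, with every CG in capitals. The starts are those of RefSeq and can differ from the gene bounds used for the features. By those bounds every window but that of PDK1 reaches into its gene, most of all that of FAS. Methylation was not measured here.
BMF (chr15:40108880-40109129, minus strand): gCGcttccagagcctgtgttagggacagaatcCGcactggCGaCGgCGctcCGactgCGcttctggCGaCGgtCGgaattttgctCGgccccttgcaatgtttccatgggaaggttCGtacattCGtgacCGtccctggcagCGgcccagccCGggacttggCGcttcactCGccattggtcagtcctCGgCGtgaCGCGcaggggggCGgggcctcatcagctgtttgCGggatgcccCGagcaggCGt
EMP2 (chr16:10580599-10580848, minus strand): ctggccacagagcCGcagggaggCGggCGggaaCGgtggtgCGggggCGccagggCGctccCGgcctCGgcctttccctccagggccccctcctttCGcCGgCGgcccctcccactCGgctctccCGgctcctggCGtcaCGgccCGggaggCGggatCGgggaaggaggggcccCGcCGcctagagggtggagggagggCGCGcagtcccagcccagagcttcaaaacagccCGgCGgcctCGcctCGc
SYCP3 (chr12:101739463-101739712, minus strand): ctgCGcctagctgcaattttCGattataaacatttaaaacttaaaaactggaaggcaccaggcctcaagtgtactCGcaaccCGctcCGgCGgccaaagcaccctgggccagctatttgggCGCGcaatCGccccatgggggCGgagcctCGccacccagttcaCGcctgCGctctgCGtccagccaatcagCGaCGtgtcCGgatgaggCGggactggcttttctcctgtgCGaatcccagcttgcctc
FAS (chr10:88990548-88990797, plus strand): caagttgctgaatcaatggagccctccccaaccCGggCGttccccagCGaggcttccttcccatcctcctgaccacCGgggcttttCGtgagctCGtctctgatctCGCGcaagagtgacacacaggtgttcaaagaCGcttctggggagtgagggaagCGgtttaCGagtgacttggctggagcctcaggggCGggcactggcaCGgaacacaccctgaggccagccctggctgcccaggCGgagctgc
ALDOA (chr16:30064029-30064278, plus strand): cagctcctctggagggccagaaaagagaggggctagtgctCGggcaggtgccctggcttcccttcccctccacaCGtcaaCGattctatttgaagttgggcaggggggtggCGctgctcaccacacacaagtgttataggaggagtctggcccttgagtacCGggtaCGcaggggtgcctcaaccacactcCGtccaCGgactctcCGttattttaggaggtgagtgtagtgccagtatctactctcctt
PDK1 (chr2:172555123-172555372, plus strand): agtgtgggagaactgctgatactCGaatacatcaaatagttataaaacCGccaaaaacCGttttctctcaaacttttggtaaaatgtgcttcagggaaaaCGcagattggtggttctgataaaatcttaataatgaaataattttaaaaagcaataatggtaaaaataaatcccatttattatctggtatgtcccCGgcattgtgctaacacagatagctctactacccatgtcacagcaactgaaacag
BMF had 26 CG in this window, EMP2 27, SYCP3 19, FAS 14, ALDOA 9 and PDK1 5, where the median of 27305 RefSeq promoters was 11 and 93.6% held at least 1 (CG reads the same on both strands). The number did not sort rises from falls by itself: SALL2, whose opposite feature was at 0 under vehicle, had 3 and DDIT4, which fell, had 26. Over the genes with a rising opposite feature the median was 26.5 (quartiles 8.75 and 33, 28 of 35 matched). Over those with a falling one it was 16 (quartiles 9.75 and 22.25, 8 of 8 matched), and the quartile ranges overlapped. At least 10 CG were held by 71.4% of the matched genes with a rising opposite feature and by 75% of those with a falling one. Among matched genes with a tested opposite feature the share was 86.5%. Genes with a tested opposite feature had a median of 22 (533 of 667 matched) and tested coding features one of 21 (3784 of 4731 matched), both under 80% matched. For coding features called by their own names fewer than 80% matched the table (93 of 119 rises and 22 of 30 falls), so that check is void.

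The falls among opposite features come next. Opposite ALDOA, the aldolase of glycolysis, the feature at chr16:30064306-30064825 (minus strand) fell from 511, 362, 505 TPM to 156, 81.3, 115 TPM (log2 change -1.99, SE 0.28, adjusted p = 0.0271). ALDOA itself switched between 0 and high values within both groups, at 182, 778, 0 TPM and 0.596, 256, 302 TPM, so its own name gave no usable change. DDIT4-AS1 fell from 1129, 648, 616 TPM to 279, 258, 236 TPM (log2 change -1.57, SE 0.25, adjusted p = 0.0358). It lies over its whole length opposite DDIT4, an inhibitor of the growth kinase complex mTORC1 that hypoxia and stress induce. DDIT4 by its own name fell too, from 98.2, 74.4, 48.5 TPM to 27.5, 17.9, 19.4 TPM (log2 change -1.69, SE 0.31, adjusted p = 0.0496), and is the gene called in the same direction from both strands. The calls were lost without any 1 library other than decitabine a (adjusted p 0.0157 to 0.0904) for the feature opposite ALDOA, without any 1 library other than vehicle a and under quantile scaling or without the trend term (adjusted p 0.0221 to 0.108) for DDIT4-AS1 and without any 1 of the 6 libraries and under quantile scaling or without the trend term (adjusted p 0.0316 to 0.138) for DDIT4. DDIT4-AS1 had a log2 change of -2.20 in parental cells (adjusted p of the difference 0.59).

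Opposite PNP, the purine nucleoside phosphorylase that splits guanosine and its deoxy form, the feature fell from 487, 589, 621 TPM to 227, 259.6, 227 TPM (log2 change -1.24, SE 0.13, adjusted p = 0.014). In parental cells it was at 316, 341, 353 TPM under vehicle and 341 and 332 TPM under decitabine, and the difference between the lines was called (-1.24, SE 0.17, adjusted p = 0.0337). With all 12 libraries it turned sign and was not called (1.56, adjusted p = 0.751). Opposite ACLY, the ATP citrate lyase that feeds lipid synthesis, 2061, 2377, 2432 TPM became 1196, 1261, 1454 TPM (log2 change -0.81, SE 0.12, adjusted p = 0.0294). Opposite PA2G4, a regulator of growth and ribosome production, 1334, 1906, 1818 TPM became 848, 949, 871 TPM (log2 change -0.91, SE 0.16, adjusted p = 0.0457). The features opposite VPS51, a subunit of an endosomal tethering complex, GIT2, a regulator of ARF GTPases, and PTGR2, a prostaglandin reductase, also fell, with log2 fold changes of -0.67, -1.19 and -1.79. That groups do not overlap was a condition of naming these features, and 8.58% of all features lay lower without overlap. Each lost its call in some fit: without vehicle c, decitabine a or decitabine c (adjusted p 0.0109 to 0.0565) for PNP, without any 1 library other than vehicle a and without the trend term (adjusted p 0.0193 to 0.108) for ACLY, without any 1 library other than vehicle a and under quantile scaling or without the trend term (adjusted p 0.0239 to 0.132) for PA2G4, without any 1 of the 6 libraries and without the trend term (adjusted p 0.0187 to 0.144) for VPS51, without any 1 of the 6 libraries and without the trend term (adjusted p 0.0316 to 0.124) for GIT2 and without any 1 of the 6 libraries (adjusted p 0.0151 to 0.0812) for PTGR2.

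A pair of features with a smaller overlap fell more stably; they were picked after their values were seen. RUSC1-AS1 (chr1:155316863-155324176, minus strand), with 19.7% of its exon length opposite FDPS, the farnesyl diphosphate synthase of the mevalonate pathway, fell from 1477, 1787, 1626 TPM to 640.4, 656, 725 TPM (log2 change -1.27, SE 0.11, adjusted p = 0.0084). A feature with 27.6% of its exon length opposite LRMP, a membrane protein of germinal-centre B cells (chr12:25096868-25100980, minus strand), fell from 1401, 1336, 1352 TPM to 691, 738, 721 TPM (log2 change -0.93, SE 0.08, adjusted p = 0.00858). Both kept their calls without any 1 library, and the feature at LRMP lost its call without the trend term (adjusted p 0.00458 to 0.059 over its alternatives). In parental cells RUSC1-AS1 was at 824, 855, 922 TPM under vehicle and 781 and 1232 TPM under decitabine, and the feature at LRMP at 521, 604, 619 TPM and 679 and 575 TPM. For both the difference of responses was called (-1.45, SE 0.24, adjusted p = 0.0495 for RUSC1-AS1 and -1.04, SE 0.14, adjusted p = 0.0337 for the feature at LRMP). With all 12 libraries both differences turned sign and were not called (1.45, adjusted p = 0.773 and 2.06, adjusted p = 0.72). Under vehicle, resistant cells listed both at higher levels than parental cells. MIF-AS1, with 46.5% opposite the cytokine gene MIF, fell from 2482, 2863, 2428 TPM to 1458, 1831, 1594 TPM (log2 change -0.67, SE 0.12, adjusted p = 0.0499), a call lost without any 1 of the 6 libraries and under quantile scaling, without the trend term, with a pseudocount of 0.1 or with a minimum of 5 TPM (adjusted p 0.0234 to 0.167).

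Read by their own gene names, 119 of 4731 tested coding features rose (2.52%) and 30 fell (0.634%). Of the rises 47 were listed at 0 in all vehicle libraries. Genes of cell death, nucleotide handling, germ cells and histones are described first, since their lists fit the drug and the line.

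FAS (chr10:88990582-89015785, plus strand), the death receptor that p53 can induce, rose from 8.20, 9.54, 15.2 TPM to 73.3, 95.03, 63.2 TPM (log2 change 2.73, SE 0.28, adjusted p = 0.0127). The call was lost without decitabine a (adjusted p 0.00964 to 0.0518). In parental cells FAS lay lower with the drug, from 8.63, 7.89, 11.1 TPM to 1.81 and 0.881 TPM in decitabine replicates 1 and 2 and 2.98 TPM in replicate 3, and the difference was called (4.87, SE 0.43, adjusted p = 0.0019), but not with all 12 libraries (adjusted p = 0.167). FAS was the 1 called member among 5 tested of 18 death receptors and caspases. Of 21 p53 targets 10 were tested by their own names with a median log2 fold change of 0.54 (0.47 under median-ratio and 0.06 under quantile scaling), and FAS was the only one called. Of 3 opposite features of that list, that of MDM2 rose and those of SESN1 (log2 change 1.11, SE 0.22, adjusted p = 0.0597, a call in the fit of features above 0 in all libraries) and BBC3 (0.47, adjusted p = 0.813) were not called. BBC3 was read from MIR3190, which lies within its exons on the other strand.

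BCL2 (chr18:63123346-63320128, minus strand), the target of venetoclax, rose from 37.6, 39.4, 34.5 TPM to 75.8, 78.7, 72.1 TPM (log2 change 1.01, SE 0.13, adjusted p = 0.0246). The groups were tight and apart, and yet the call was lost without any 1 of the 6 libraries and without the trend term (adjusted p 0.0199 to 0.0816). In parental cells BCL2 was at 53.8, 55.9, 52.8 TPM and 74.96 and 88.6 TPM (adjusted p of the difference 0.463). The other anti-apoptotic members were not called. BCL2L1 was at 29.3, 29.6, 24.98 TPM under vehicle and 16.4, 22.5, 20.5 TPM under decitabine (log2 change -0.49, SE 0.19, adjusted p = 0.243), and ABALON, with 74.8% of its exon length opposite BCL2L1, at 223, 239, 199.5 and 160.3, 175, 183 TPM (log2 change -0.35, SE 0.12, adjusted p = 0.196). Both lay lower with the drug without overlap between groups, as did 8.58% of all features. MCL1 was at 0.975, 1.70, 0.277 TPM and 1.99, 2.54, 3.10 TPM (adjusted p = 0.282), low levels for a gene that B-cell lymphomas usually express. Parental decitabine replicate 3, in which the other strand carries the signal, listed MCL1 at 56.25 TPM. It listed BCL2 at 169.9, BCL2L1 at 90.28 and BCL2L2 at 1.596 TPM. What the low values of MCL1 rest on was not tested, nor how far the own-name values of this family measure its mRNA. BCL2L2 was at 112, 74.7, 91.7 TPM and 62.2, 70.9, 103 TPM (adjusted p = 0.605), while BCL2A1 and BCL2L10 were under the minimum and each above 0 in 1 library only. Of 11 pro-apoptotic members 8 were tested by their own names and none was called (median 0.67, or 0.79 without those at 0 in 1 group). At an unadjusted p under 0.05 were 2 of the 8, and 1695 of all 8579 tested features. BMF-AS1 was the 1 call of 2 opposite features.

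The enzymes that handle decitabine could be read only in part. DCK was at 2.98, 0, 0 TPM under vehicle and 0 in all decitabine libraries, and DNMT1, the maintenance methyltransferase the drug traps, at 0.973, 1.07, 2.24 and 0.550, 0, 0 TPM. DNMT3A did not exceed 0.219 TPM, and DNMT3B was at 0 throughout. All 4 lay under the minimum and were not tested. Parental decitabine replicate 3, in which the other strand carries the signal, listed DCK at 53.4 and DNMT1 at 220.6 TPM. It listed DNMT3A at 2.496 and DNMT3B at 5.675 TPM. SAMHD1, the enzyme that hydrolyses deoxynucleotide triphosphates and the triphosphate of decitabine, was at 0 in all vehicle libraries and at 15, 15.8, 16.04 TPM under decitabine (adjusted p = 0.0026), a call kept without any 1 library. In parental cells SAMHD1 was at 0, 0, 0.273 TPM under vehicle. Decitabine replicates 1 and 2 had 7.77 and 0 TPM, and replicate 3, which stands apart by strand, had 32.2 TPM. Without replicate 3 the difference between the lines was not called (limma, adjusted p = 0.417). DTYMK, thymidylate kinase, was at 0 and then at 4.77, 3.04, 3.06 TPM (adjusted p = 0.032), a call lost without any 1 of the 6 libraries and under quantile scaling (adjusted p 0.0106 to 0.131). These were the 2 calls among 10 tested of 22 genes of decitabine uptake and nucleotide metabolism (median 0.23, or 0.14 without the 3 at 0 in 1 group).

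Of 52 cancer-testis and germline genes found 45 were listed at 0 in all 6 libraries, 3 were tested and 2 rose. A value of 0 does not show silence here, since 12 of 18 genes of MHC class II presentation and 2 of 16 always-expressed genes were also at 0 in all 6. SYCP3 (chr12:101728648-101739472, minus strand), a protein of the synaptonemal complex of meiosis, rose from 16.2, 7.94, 13.7 TPM to 91.5, 166, 68.3 TPM (log2 change 2.97, SE 0.41, adjusted p = 0.0271). CHPT1, which encodes a choline phosphotransferase and overlaps SYCP3 on the other strand, was at 0 and then at 18.2, 17.1, 18.6 TPM (adjusted p = 0.00233). STAG3, a cohesin subunit of meiosis, was already expressed and rose from 47.7, 56.1, 40.8 TPM to 101, 88.7, 109 TPM (log2 change 1.04, SE 0.17, adjusted p = 0.039). The call of SYCP3 was lost without any 1 library other than vehicle a (adjusted p 0.0157 to 0.0858) and that of STAG3 without any 1 of the 6 libraries and without the trend term (adjusted p 0.0283 to 0.112), while CHPT1 kept its call without any 1 library. The third, CTCFL, had a log2 fold change of 1.34 and no call. TBXT, the notochord transcription factor brachyury, which was picked after its values were seen, was at 0, 0.609, 0 TPM and then at 7.85, 11.7, 5.25 TPM (adjusted p = 0.0276), a call lost without any 1 of the 6 libraries and under quantile scaling (adjusted p 0.016 to 0.0877).

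Histone genes were among the lists with the highest median. Replication-dependent histone mRNA normally ends in a stem-loop and not in a poly(A) tail, so libraries selected by poly(A) hold little of it; how mRNA was selected here is not given in the labels. Of 8 tested members of 30, 3 rose, and 7 lay above 0 in log2 fold change; the median was 1.32 where all features had 0.21 (1.24 and 0.95 under median-ratio and quantile scaling). H4C9, a histone H4 gene, rose from 50.1, 69.9, 57.8 TPM to 260.1, 262, 224 TPM (log2 change 2.06, SE 0.17, adjusted p = 0.00638). H2BC12, a histone H2B gene, was at 0 in all vehicle libraries and at 227, 254, 195 TPM under decitabine (adjusted p = 0.000173). Both kept their calls without any 1 library. H2BC15 rose from 1.45, 1.71, 1.93 TPM to 7.99, 8.19, 6.12 TPM (log2 change 1.64, SE 0.27, adjusted p = 0.0388) and lost its call without any 1 of the 6 libraries and under quantile scaling (adjusted p 0.0174 to 0.122). Summed over the list the level was 58.9, 73.9 and 64.5 TPM under vehicle and 525, 539 and 440.0 TPM under decitabine, most of it from H4C9 and H2BC12. Histone genes are near-identical copies, so the gene within the family is uncertain. In parental cells H4C9 changed by 1.63 (adjusted p of the difference 0.568).

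**Figure D3:**
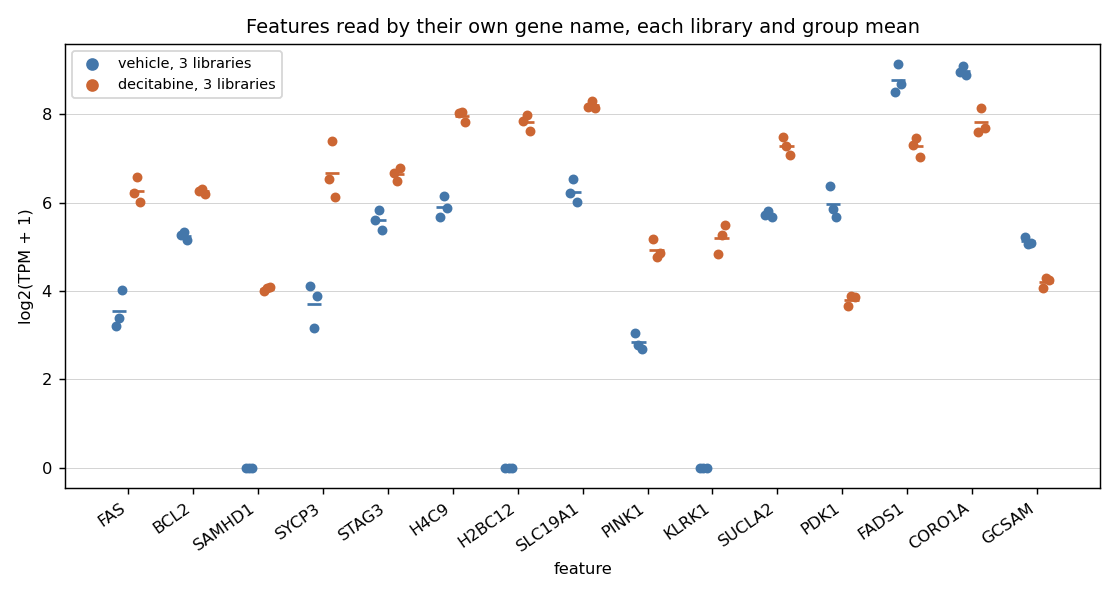
Log2(TPM + 1) of 15 genes read by their own names, for each of the 3 vehicle (blue) and 3 decitabine (orange) libraries of resistant cells, with the group mean as a bar. Points at 0 are values listed at 0, as for SAMHD1, H2BC12 and KLRK1 under vehicle. The 15 were chosen among calls, and their groups do not overlap. Of all tested features 19.8% lay higher and 8.58% lower without overlap.

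Other stable rises by own name came from several functions. SLC19A1, the reduced folate carrier, rose from 73.02, 90.9, 63.2 TPM to 286, 312, 281 TPM (log2 change 1.95, SE 0.16, adjusted p = 0.00724), and parental cells went from 7.15, 10.5, 17.1 TPM to 71.95 and 59.6 TPM (adjusted p of the difference 0.698). CFAP410, a protein of cilia, rose from 39.4, 45.2, 43.96 TPM to 151, 144, 146 TPM (log2 change 1.75, SE 0.12, adjusted p = 0.00368). SUCLA2, a subunit of the succinyl-CoA ligase of the citric acid cycle, rose from 51.3, 54.8, 49.7 TPM to 178, 156, 134 TPM (log2 change 1.56, SE 0.15, adjusted p = 0.0106). The long non-coding RNAs LINC00163 and PICSAR went from at most 0.895 and 0.952 TPM to 30.6, 34.9, 35.7 TPM and to 45.3, 39.9, 44.3 TPM (adjusted p = 0.00172 and 0.00299). KLRK1, which encodes NKG2D, an activating receptor of natural killer cells, was at 0 in all vehicle libraries and at 27.6, 37.4, 44.2 TPM under decitabine (adjusted p = 0.00172), and parental cells were at 0 and at 33.7 and 38.3 TPM. The 9 markers of T and natural killer cells stayed at or under 2.17 TPM in sum in the same libraries. These 6 features kept their calls without any 1 library.

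CFAP410, LINC00163, PICSAR and SLC19A1 lie within 1.22 Mb of each other near the end of chromosome 21 (chr21:44328944-45544411, GRCh38), all on the minus strand. This was seen after their values were known. The bounds of the interval are the outer ends of CFAP410 and SLC19A1, so its share of rises follows in part from how it was drawn. It held 10 tested features, of which these 4 rose, none fell and 9 had a positive log2 fold change. COL18A1, the collagen gene that overlaps SLC19A1 on the plus strand, came next with a log2 fold change of 1.14 (adjusted p = 0.0567). On the whole chromosome 9 of 104 tested features rose and none fell, where 2.83% of all tested features rose and 0.758% fell.

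PINK1, the kinase that marks damaged mitochondria for removal, rose from 7.33, 5.87, 5.46 TPM to 35.2, 26.2, 27.9 TPM (log2 change 2.09, SE 0.22, adjusted p = 0.0127). Its call was lost without decitabine c (adjusted p 0.0111 to 0.052). Parental cells listed PINK1 at 24.3, 20.5, 20.6 TPM and 26.02 and 30.7 TPM, and the difference was called (1.73, SE 0.28, adjusted p = 0.0495), but not with all 12 libraries (2.11, adjusted p = 0.709). Resistant vehicle cells were the low group, and with decitabine the values of both lines lay in the same range. REV3L, the catalytic subunit of the translesion polymerase zeta, rose from 1.05, 2.46, 1.80 TPM to 12.8, 10.1, 11.2 TPM (log2 change 2.19, SE 0.30, adjusted p = 0.0271), and DOT1L, the histone H3 lysine methyltransferase, from 13.1, 11.96, 9.98 TPM to 28.1, 28.3, 28.8 TPM (log2 change 1.22, SE 0.18, adjusted p = 0.0301). The calls were lost without any 1 library other than vehicle a and vehicle b and under quantile scaling (adjusted p 0.0157 to 0.0895) for REV3L and without any 1 of the 6 libraries (adjusted p 0.024 to 0.0908) for DOT1L.

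Among the falls by own name, PDK1, the kinase that shuts pyruvate out of the mitochondrial citric acid cycle and is induced by hypoxia, fell from 82.1, 57.2, 50.4 TPM to 11.6, 13.8, 13.5 TPM (log2 change -2.18, SE 0.23, adjusted p = 0.0127). Its call was lost without decitabine a or decitabine c (adjusted p 0.0103 to 0.052), and in parental cells the log2 change was -1.63 (adjusted p of the difference 0.607). FADS1, a desaturase of polyunsaturated fatty acids, fell from 362, 560.1, 410.3 TPM to 158, 176, 129.8 TPM (log2 change -1.50, SE 0.21, adjusted p = 0.0271). CORO1A, an actin-binding protein of leukocytes, fell from 492, 548, 475 TPM to 194, 281, 206 TPM (log2 change -1.17, SE 0.17, adjusted p = 0.0288). GCSAM, a signalling protein of germinal-centre B cells, fell from 36.1, 32.7, 32.9 TPM to 15.8, 18.6, 18.1 TPM (log2 change -0.92, SE 0.16, adjusted p = 0.046). In all 4 the groups stayed apart, as they did on the lower side in 8.58% of all features. NKX6-3, a homeobox transcription factor, fell by 2.19 on the log2 scale and ANKZF1, a protein of ribosome quality control, by 1.91. The calls were lost without any 1 library other than vehicle a and vehicle b (adjusted p 0.0169 to 0.0858) for FADS1, without any 1 library other than decitabine b and without the trend term (adjusted p 0.0173 to 0.0881) for CORO1A, without any 1 of the 6 libraries and without the trend term (adjusted p 0.0296 to 0.129) for GCSAM, without any 1 library other than vehicle a and vehicle b (adjusted p 0.0128 to 0.0588) for NKX6-3 and without any 1 library other than vehicle a and vehicle b (adjusted p 0.0157 to 0.0813) for ANKZF1. NPIPB11 fell from 42.5, 42.4, 40.95 TPM to 9.71, 10.8, 11.8 TPM (log2 change -1.87, SE 0.17, adjusted p = 0.0084) and kept its call without any 1 library, but it belongs to a family of near-identical copies and its assignment is uncertain.

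For 15 of the 149 coding features called by their own names an opposite feature was tested too. It was called in the same direction for DDIT4 and in the other direction for SIRT5, and in the remaining 13 it was not called, while its log2 fold change had the same sign as the gene's in 9 of the 15. PRDX2, a peroxiredoxin that removes hydrogen peroxide, was listed at 626, 749, 1387 TPM under vehicle and at 0 in all decitabine libraries (adjusted p = 0.000446). The feature opposite PRDX2 was at 6611, 8236, 6468 TPM and 5042, 5605, 4227 TPM (log2 change -0.52, adjusted p = 0.139). In parental cells PRDX2 was at 692, 0, 1552 TPM under vehicle, so that the 0 also occurred without the drug.

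SNAP29, a membrane-fusion protein of autophagy, was at 0 under vehicle and at 30.4, 35.1, 23.4 TPM under decitabine (adjusted p = 0.00172), while its opposite feature stayed at 91.5, 94.1, 86.3 and 89.6, 113, 88.01 TPM (log2 change 0.09, adjusted p = 0.769). The opposite features of SLX4, a nuclease scaffold of DNA repair, and CYHR1 lay lower with the drug (log2 change -0.73, adjusted p = 0.111 and log2 change -0.47, adjusted p = 0.162) where the genes themselves rose from 0 to 7.56, 6.14, 6.51 TPM and to 15.6, 20.9, 19.9 TPM. SIRT5, a mitochondrial deacylase, fell from 7.88, 8.74, 5.79 to 1.09, 0.693, 1.93 TPM (log2 change -1.94, SE 0.34, adjusted p = 0.046), while its opposite feature rose from 3.20, 3.25, 1.16 to 27.7, 17.4, 21.8 TPM (log2 change 2.76, SE 0.37, adjusted p = 0.0246). The calls at SIRT5 were lost without any 1 of the 6 libraries and with a pseudocount of 0.1 (adjusted p 0.0221 to 0.127) and, for the opposite feature, without any 1 library other than vehicle a and vehicle c (adjusted p 0.0157 to 0.0858). Across the 433 genes tested both ways the fold changes of own name and opposite feature had Spearman's rho of 0.124 and the same sign in 257, as a description over genes that share libraries.

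Across the gene lists with 3 or more members tested, medians lay between -0.30 and 1.34 by own name. The counts at an unadjusted p under 0.05 given below stand beside 1695 of all 8579 tested features at that level. Glycolysis and hypoxia genes were lowest: 17 of 31 were tested, PDK1 fell, and the median was -0.30, with 4 opposite features at a median of -1.05 of which that of ALDOA fell. The feature opposite GAPDH, the most abundant of the list, was at 134300, 147000, 108500 TPM under vehicle and 87870, 105600, 81930 TPM under decitabine (log2 change -0.50, SE 0.16, adjusted p = 0.155). GAPDH itself was at 9787, 10910, 11060 and 6586, 7711, 5912 TPM (log2 change -0.66, SE 0.12, adjusted p = 0.0523). Both lay lower without overlap between groups, as did 8.58% of all features, and neither was called. GAPDH itself was called as lower under median-ratio scaling (adjusted p 0.0314 to 0.421 over its alternatives). Of 13 mitochondrially encoded transcripts all were tested, none was called and 12 had a positive log2 fold change (median 0.89, 8 at an unadjusted p under 0.05). Of 41 interferon-stimulated genes 9 were tested by own name and none was called (median -0.20, or 0.03 without those at 0 in 1 group, 0 at an unadjusted p under 0.05), and PRAL opposite XAF1 was the 1 opposite feature. By limma none was called either among 14 cell-cycle genes (median 0.17, 2 at an unadjusted p under 0.05), 16 of DNA damage and repair (median 0.14, or 0.07 without those at 0 in 1 group, 1 at an unadjusted p under 0.05) and 31 of the respiratory chain encoded in the nucleus (median 0.16, or 0.11 without those at 0 in 1 group, 4 at an unadjusted p under 0.05). The same held for 5 genes of MHC class I (median 0.07, 3 at an unadjusted p under 0.05), 4 of MHC class II presentation (median -0.19, 0 at an unadjusted p under 0.05) and 13 of cholesterol synthesis (median -0.24, or -0.09 without those at 0 in 1 group, 1 at an unadjusted p under 0.05). No call was made among 11 PI3K-AKT-mTOR genes (median 0.19, or 0.23 without those at 0 in 1 group, 2 at an unadjusted p under 0.05), 5 imprinted genes (median 0.41, or 0.58 without those at 0 in 1 group, 2 at an unadjusted p under 0.05), 4 of plasma cell differentiation (median 0.32, 0 at an unadjusted p under 0.05) or 13 always-expressed genes (median 0.08, 2 at an unadjusted p under 0.05). Nor was any made among 3 genes of the DNA methylation machinery (median 1.00, or -0.22 without those at 0 in 1 group, 0 at an unadjusted p under 0.05) or 3 of nucleic acid sensing (median 0.88, or 0.42 without those at 0 in 1 group, 0 at an unadjusted p under 0.05). DDIT4 was the 1 call among 9 tested genes of stress and protein folding (median 0.47), and PRDX2 the 1 among 4 antioxidant genes (median -0.14, or 0.02 without PRDX2).

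Of 55 ribosomal protein genes RPL36 alone was called, as a fall from 62.7, 81.04, 76.9 to 39.3, 38.7, 37.7 TPM (log2 change -0.91, SE 0.15, adjusted p = 0.0415). That call was lost without any 1 library other than vehicle a and without the trend term (adjusted p 0.0304 to 0.131). The sign of a list's median turned under quantile scaling for the cell cycle (-0.25), DNA damage (-0.08), nuclear respiratory chain (-0.17), death receptor (-0.18), nucleotide (-0.13), anti-apoptotic (-0.04), PI3K (-0.13), B-cell marker (-0.16) and always-expressed lists (-0.37). Under median-ratio scaling it turned for MHC class I (-0.06) and always-expressed genes (-0.03).

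**Figure D4:**
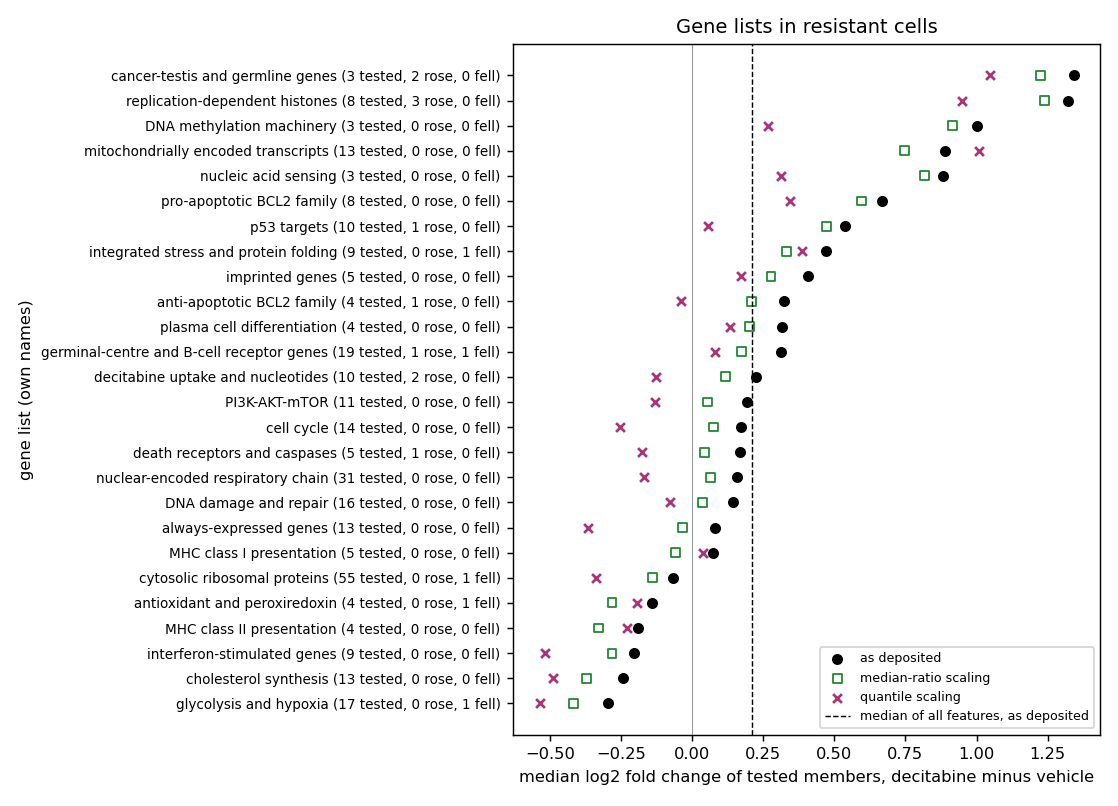
Median log2 fold change with decitabine of the tested members of each gene list read by own name (black, values as deposited), with median-ratio (green squares) and quantile scaling (purple crosses). Numbers of members tested, risen and fallen stand beside each name, and the dashed line is the median of all features (0.21). Histone, germline and mitochondrial lists stay above the dashed line in each scaling shown. So do the pro-apoptotic, stress, DNA methylation and nucleic acid sensing lists. Glycolysis stays below 0 in each, as do the interferon-stimulated, cholesterol, MHC class II, ribosomal and antioxidant lists.

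Set against the parental line, the resistant response differed in 31 of 8505 features (0.364%) when parental decitabine replicate 3 was left out, and in 1 of 12706 (0.00787%) with all 12 libraries. The difference was fitted between the responses and not between levels. FAS, PINK1, BMF-AS1 and the features at PNP, FDPS and LRMP are among the 31. For KLRK1, H4C9, SLC19A1, DDIT4-AS1 and the feature opposite MDM2 the log2 changes had the same sign in both lines and no difference was called, which does not show that the responses are equal.

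**Figure D5:**
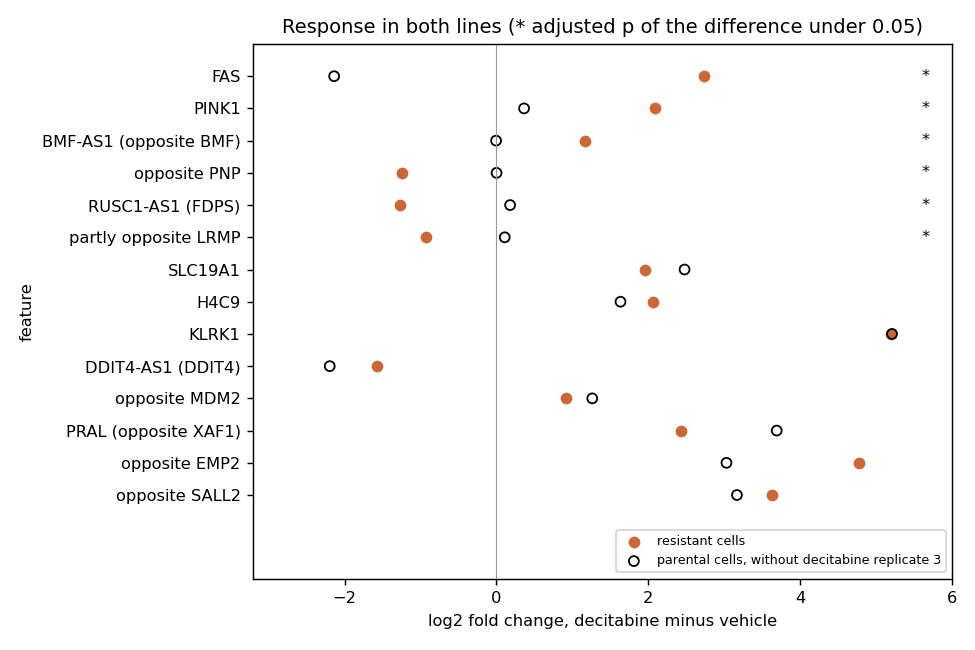
Log2 fold change with decitabine in resistant (orange) and parental cells (open circles, without decitabine replicate 3) for 14 named features. Stars mark the 6 features whose responses differ between the lines at an adjusted p under 0.05, and FAS lies above 0 in resistant and below 0 in parental cells.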

How the data were processed

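RNA of OCI-LY1R cells given vehicle or decitabine, 3 libraries each, was sequenced on DNBSEQ as stranded mRNA libraries, per the labels' protocols. The submitters' processing notes name HISAT2, StringTie, DESeq2 and build hg38; their versions and roles, the strand option and the annotation are not given in these sources. The values the authors deposited are read as TPM, since each library sums to 1000000 and no header gives a unit; read depth is unknown. Column names of the resistant line's table also fit titles of parental samples, so each resistant column was tied to its treatment group only. Of 60656 features 1166 with repeated names were left out (0.129% to 0.143% of TPM in the resistant libraries), and 56014 of the remaining 59490 names matched a gene of GENCODE 29.

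Features averaging 1 TPM or more over the 6 libraries were tested on log2(TPM + 1), which understates the fold change of low features, with limma 3.58.1 (moderated test with trend, R 4.3.3) and Benjamini-Hochberg adjustment over all features; SE is that of the log2 fold change. An opposite feature is a non-coding one with at least 50% of its exon length over exons of a coding gene on the other strand, the one of highest mean TPM standing for the gene. On simulated data, with changes placed on features of higher level, the fit recovered 30%, 62%, 74% and 88% at log2 changes of 1, 2, 3 and 4. Of its 137 calls there, 10 were false. A feature that was not called may thus have changed. Named were, among called features without overlap between groups, the 10 largest rises and falls above 0 in all 6 libraries, the 6 of smallest adjusted p in each direction, the 6 largest in each direction opposite a coding gene, and called members of the gene lists; not all of them are printed. Other called opposite features (such as those opposite CLCN7, RECQL4 and TRIM38), CPM, RUSC1-AS1, MIF-AS1, the feature at LRMP, CFAP410, PICSAR, SLC19A1, SUCLA2, CHPT1, TBXT, KLRK1, PINK1, REV3L, DOT1L, FADS1, CORO1A, SNAP29, SLX4, CYHR1, COL18A1, ACAT1, ZC3HC1 and PRR33 were chosen after their values were seen. Members and lists were chosen with earlier results of these data known. The difference between lines was fitted on 4 group means and added after the data were seen. Alternatives were quantile and median-ratio scaling, a pseudocount of 0.1, no minimum, a minimum of 5 TPM, features above 0 in all libraries, no trend, adjusted p under 0.01, overlaps of 20% and 80%, leaving out each library and, added after the data were seen, the column number as a replicate block. Some results are not reported here.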

Additional observations from a re-analysis of the deposited data

Results flagged for a closer look

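For 12 named features the log2 response to decitabine differed between resistant and parental cells when parental decitabine replicate 3 was left out (limma, adjusted p under 0.05). None of the 12 was called with all 12 libraries (adjusted p 0.167 to 0.773). Resistant minus parental, the difference was 4.87 for FAS, 1.17 for BMF-AS1, 1.73 for PINK1, -1.24 for the feature opposite PNP, -1.45 for RUSC1-AS1 and -1.04 for the feature partly opposite LRMP, described above. For the feature opposite MTSS1L it was 2.14 (adjusted p = 0.0468), with 3.30, 2.24, 3.27 TPM in parental vehicle and 12.2 and 17.3 TPM in parental decitabine replicates 1 and 2. For NPIPB11 it was -1.43 (adjusted p = 0.0447), with 36.6, 32.8, 31.3 TPM and 26.95 and 22.04 TPM in parental cells.

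ACAT1, a mitochondrial acetyl-CoA acetyltransferase, was listed at 0, 3.61, 0 TPM in resistant vehicle cells and 61.6, 74.2, 56.9 TPM with decitabine, against 59.5, 87.98, 91.1 TPM and 98.95 and 105 TPM in parental cells, a difference of 4.9 (adjusted p = 0.0495). SNAP29 had a difference of 4.92 (adjusted p = 0.00118) and was at 0 in parental vehicle and in parental decitabine replicates 1 and 2, with 34.3 TPM in replicate 3, while its opposite feature was not called in resistant cells. ZC3HC1, a zinc-finger protein of the nuclear basket, had a difference of 4.43 (adjusted p = 0.0013), listed at 0 in resistant vehicle cells, in parental vehicle cells and in parental decitabine replicates 1 and 2, at 60.5 TPM in replicate 3, and at 18.2, 22.6, 21.2 TPM in resistant cells with decitabine. PRR33 went from 690.1, 644, 653 TPM to 977, 1091, 947 TPM in resistant cells and from 1206, 1154, 1211 TPM to 976 and 1019 TPM in parental cells, a difference of 0.85 (adjusted p = 0.0337). The call of the rise in resistant cells was lost without any 1 of the 6 libraries and under median-ratio scaling or without the trend term (adjusted p 0.0341 to 0.171) for PRR33 and without any 1 library other than vehicle a and vehicle b and with a pseudocount of 0.1 (adjusted p 0.00395 to 0.0725) for ACAT1. What these differences rest on was not tested.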

How the results depend on the processing

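The columns of the resistant table are numbered 1 to 3 in both groups, and same-numbered libraries did not deviate from their group means together (correlations of -0.006, 0.031 and 0.036 over 8579 features, none over 0.1, and not every library correlated best with its own number), so the numbers are not read as pairs. With the column number as a replicate block, which was added after the data were seen and lowers the residual degrees of freedom, limma called 1 rise (H2BC12) and 1 fall (PRDX2), with 0 rises and 0 falls among opposite features, where 1519 features, 181 of them opposite, had an unadjusted p under 0.05. The counts of 243 rises and 65 falls, and of 35 rises and 8 falls among opposite features, depended on several choices. Quantile scaling gave 131 rises, and median-ratio scaling gave 124 falls, 20 of them among opposite features. Without a minimum there were 61 rises and 12 falls (opposite features 12 and 1), over 20194 features tested. With a minimum of 5 TPM 134 rises were called. Without the trend term there were 34 falls, 3 of them opposite. At an adjusted p under 0.01 there were 32 rises and 7 falls, and limma called 5 rises and 0 falls among opposite features. An overlap of 20% gave 53 rises and 19 falls among opposite features. Leaving out each library gave 71 to 151 rises, 18 to 46 falls, and among opposite features 10 to 18 rises and 0 to 5 falls. Fewer libraries were fitted there, and for the scalings and the trend term the cause was not tested. No named feature changed direction under these alternatives. At an unadjusted p under 0.05 there were 1695 features. The difference between lines was called for 31 features without parental decitabine replicate 3 and for 1 with all 12 libraries, where those of the features opposite PNP, at FDPS (RUSC1-AS1) and partly opposite LRMP turned sign. TPM carries no depth, so counting error could not be separated from the spread between libraries, and values listed at 0 limit what own names can show.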
